A study of Mus musculus with 2 samples.

Results

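Glycine receptors, their scaffold gephyrin and the transporters that handle glycine were described in RNA of the left cerebral cortex from 8 genes: the receptor subunits Glra1, Glra2, Glra3 and Glrb, the scaffold Gphn, the membrane protein Lhfpl4 and the transporters Slc6a9 and Slc6a5. They were picked by symbol from the 55536 annotated genes of the deposited tables, and all 8 were found. The study holds 1 group of 2 male B6CASTF1/J mice aged 10 days, hybrids of the strains C57BL/6J and CAST/EiJ. The tissue came from The Jackson Laboratory, and each library was made by total RNA-seq from 300 ng of RNA with synthetic ERCC spike-in RNAs. The libraries are marked as biological replicates 1 and 2 of separately numbered animals, although 1 donor identifier is shared by both in the labels. The spread between them therefore measures these samples only. With no treated, mutant or control group, nothing could be tested between groups, and p-values are absent.

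Glycine receptors are chloride channels built from alpha and beta subunits that open when glycine binds. The beta subunit, encoded by Glrb, carries the stretch that binds gephyrin, a protein lattice under the membrane that holds glycine and GABA-A receptors at inhibitory synapses. Receptors of the alpha subunit encoded by Glra2 are known as the form of the developing brain, and those of Glra1 as the form of the adult spinal cord and brainstem. Slc6a9 encodes the transporter GlyT1, known mainly from glia, and Slc6a5 encodes GlyT2, known from glycine-releasing neurons. Lhfpl4 encodes a small membrane protein that links GABA-A receptors to neuroligin 2 and gephyrin.

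The splice forms described here differ in a few stretches, and some of these are printed because transcript values turn on them. All are from the GENCODE M21 transcripts on mm10, 5′ to 3′ on the strand of the gene. Capitals mark the exon or stretch that sets the transcript apart, and lower case marks the bases on either side of it in the transcript. Gphn (ENSMUSG00000047454.12, chr12:78226379-78684772, plus strand) has coding transcripts Gphn-201 and Gphn-202. A coding exon of 108 bases at chr12:78493950-78494057 is in Gphn-202 only. Coding exons of 57 bases at chr12:78522898-78522954 and of 42 bases at chr12:78532657-78532698 are in Gphn-201 only.
Gphn-202 exon 8: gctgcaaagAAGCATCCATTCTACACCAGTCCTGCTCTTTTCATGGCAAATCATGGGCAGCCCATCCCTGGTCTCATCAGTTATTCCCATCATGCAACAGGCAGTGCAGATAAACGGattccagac
Gphn-201 exon 9: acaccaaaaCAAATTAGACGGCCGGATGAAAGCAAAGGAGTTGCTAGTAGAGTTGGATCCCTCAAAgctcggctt
Gphn-201 exon 10: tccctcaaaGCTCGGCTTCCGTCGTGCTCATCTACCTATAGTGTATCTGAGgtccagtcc
Each of the 3 exons has a length divisible by 3, so neither form shifts the reading frame there.

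Glrb (ENSMUSG00000028020.16, chr3:80843599-80913660, minus strand) has 6 annotated transcripts. Glrb-204 uses an acceptor 4 bases further into exon 3 than the full coding form Glrb-201, and lacks the TCAG at chr3:80879729-80879732. Its annotated coding stretch is 174 bases, against 1488 bases in Glrb-201, and it is annotated as a target of nonsense-mediated decay, the pathway that removes messages with an early stop.
The line of Glrb-204 is in lower case throughout because these capitals are absent from it, and the bases after the capitals in Glrb-201 belong to exon 3.
Glrb-204 at the exon 3 acceptor: gtacttgtgcccatccagtcacccgaggac
Glrb-201 at the exon 3 acceptor: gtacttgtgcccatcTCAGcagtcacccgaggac
A further coding form, Glrb-206, skips an in-frame exon of 153 bases at chr3:80855785-80855937, which is exon 8 of Glrb-201.
Glrb-201 exon 8: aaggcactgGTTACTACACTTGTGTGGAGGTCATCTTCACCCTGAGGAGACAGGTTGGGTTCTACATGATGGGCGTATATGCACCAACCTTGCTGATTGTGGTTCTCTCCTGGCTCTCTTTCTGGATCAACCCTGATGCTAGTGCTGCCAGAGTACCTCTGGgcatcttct

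Slc6a9 (ENSMUSG00000028542.17, chr4:117834506-117875198, plus strand) has 12 annotated transcripts with different starts, and those named here are called by their length: the 3479-base form (ENSMUST00000030269.13), the 3146-base form (ENSMUST00000063857.10) and the 2107-base form (ENSMUST00000163288.1). The 2107-base form begins downstream and opens its coding sequence with 87 bases of its own at chr4:117849380-117849466, before an exon it shares with the 3479-base form. The nearest coding stretch of the 3479-base form upstream of that exon is its first 30 coding bases at chr4:117843106-117843135. These are part of 75 coding bases of the 3479-base form that the 2107-base form lacks, and the others are not printed.
Slc6a9 2107-base form, first coding stretch: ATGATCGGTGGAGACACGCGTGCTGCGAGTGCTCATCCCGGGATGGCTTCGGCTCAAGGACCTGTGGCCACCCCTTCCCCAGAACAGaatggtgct
Slc6a9 3479-base form, first coding stretch: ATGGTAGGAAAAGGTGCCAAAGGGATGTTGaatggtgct

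Each library was deposited in 3 tables from 2 quantifications of the same reads. The first used alignments to the transcriptome and gives expected counts and TPM, an abundance per transcript length on a scale with a fixed total. The second used the reads with an index and gives estimated counts and TPM per transcript, summed here by gene. Replicate 1 held 31254528 expected counts, and replicate 2 held 30218308. Markers of cortical cells were present: all 5 of glutamatergic neurons, all 6 of GABAergic interneurons and all 6 of astrocytes reached 1 TPM in both libraries. Of 10 markers of hindbrain and spinal cord none did. In the first quantification their summed TPM was 0.09 in replicate 1 and 0.11 in replicate 2. There 6 of them, Hoxa2, Hoxb3, Hoxb4, Hoxb5 and Hoxc4 included, were at 0 in both. In the second quantification Hoxb4, Hoxb5 and Hoxc4 had some estimated counts, at 0.155 TPM or less. Markers of neighbouring tissues and of blood differed between the libraries: the summed TPM of 5 striatal markers was 109.7 in replicate 1 and 71.7 in replicate 2, that of 5 choroid plexus markers was 9.1 and 313.4, and that of 6 erythroid markers was 1213 and 836. Most of the choroid plexus sum was Ttr, at 7.35 and 303.5 TPM in replicates 1 and 2. The other choroid plexus markers were also higher in replicate 2, from under 1 TPM in replicate 1. Since this is bulk tissue, fewer cells of a type and less RNA per cell cannot be told apart.

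Of the 8 genes, 6 reached 1 TPM in both libraries and are called detected, beside 59.6% of 22015 nuclear protein-coding genes. The order was Glrb, Lhfpl4, Gphn, Slc6a9, Glra2, Glra3, Glra1 and Slc6a5, and it was the same in both quantifications. Neighbours in this order did not overlap between the libraries in the first quantification. The closest neighbours by ratio were Slc6a9, at 20.4 to 20.8 TPM, and Glra2, at 16.2 to 18.2 TPM.

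**Figure D1:**
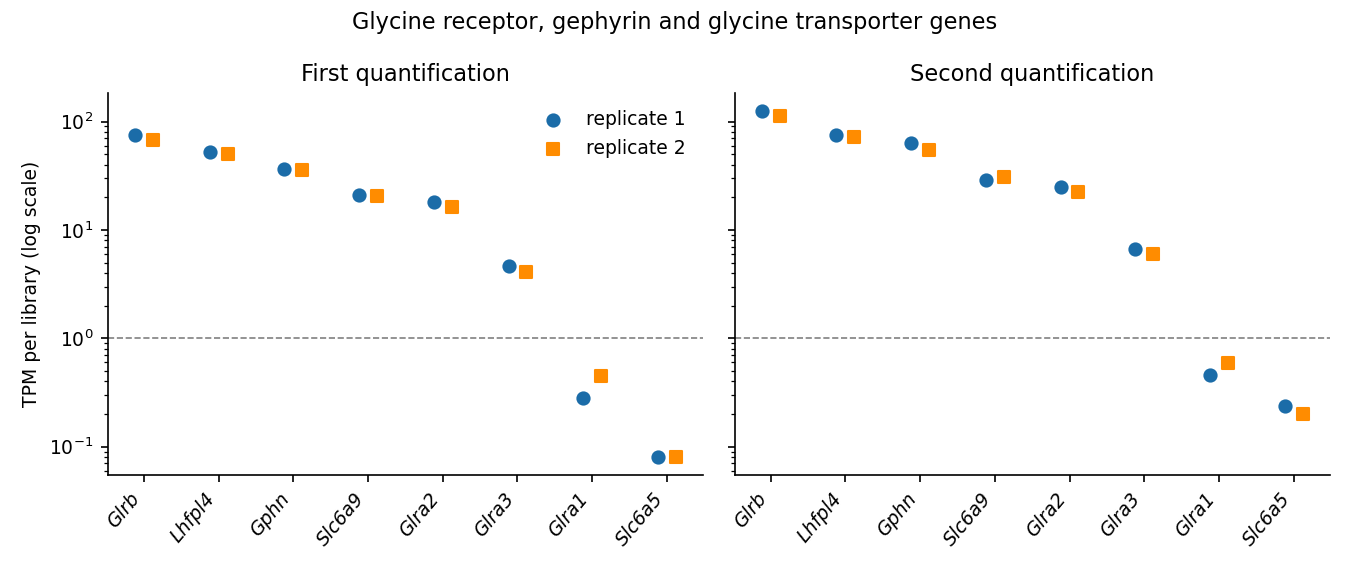
TPM of the 8 genes on a log axis, in the first quantification at left and the second at right, with 1 circle for replicate 1 and 1 square for replicate 2 per gene. The dashed line is 1 TPM: 6 genes lie above it in both panels, and Glra1 and Slc6a5 lie below.

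Among the receptor subunits, Glrb stood far above the alpha subunits. Glrb had 74.8 TPM in replicate 1 and 67.2 TPM in replicate 2, a mean of 71.0 ± 5.37 (SD, n = 2), at percentile 93.1 of protein-coding genes. Glra2 (ENSMUSG00000018589.8, chrX:165129017-165327393, minus strand), which encodes the alpha 2 subunit, had 18.2 TPM in replicate 1 and 16.2 TPM in replicate 2, a mean of 17.2 ± 1.41 at percentile 71.3. Glra3 (ENSMUSG00000038257.9, chr8:55940460-56130070, plus strand), the alpha 3 gene, had 4.68 and 4.12 TPM in replicates 1 and 2, a mean of 4.40 ± 0.396 at percentile 51.1. All of these were higher in replicate 1, and the gaps between the genes were wider than the gaps between the libraries.

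Glra1 (ENSMUSG00000000263.15, chr11:55514238-55608198, minus strand), the alpha 1 gene of the adult spinal cord receptor, was near the floor. It had 0.28 TPM in replicate 1 and 0.45 TPM in replicate 2, from 13 and 19 expected counts. Replicate 2 was higher, and the counting interval of the ratio ran from 0.708 to 3.33, so no difference was detectable at this depth. Glra4, the last alpha gene, averaged 0.035 TPM, from 2 counts in replicate 1 and 0 in the other library.

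The makeup of the alpha pool was steady between the libraries. Glra2 made up 78.6% of the summed TPM of Glra1, Glra2 and Glra3 in replicate 1 and 78.0% in replicate 2, a mean of 78.3% ± 0.414. Glra3 made up 20.01% ± 0.263 and Glra1 1.69% ± 0.677 (SD, n = 2). In the second quantification the shares were 77.5% ± 0.179 for Glra2, 20.7% ± 0.256 for Glra3 and 1.73% ± 0.435 for Glra1. Glra2 TPM was 3.91 ± 0.0307 times that of Glra3 in the first quantification and 3.74 ± 0.0377 times in the second.

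Glrb exceeded the alpha subunits together. The summed alpha TPM was 23.2 in replicate 1 and 20.8 in replicate 2, and Glrb over that sum was 3.23 in both, a mean of 3.23 ± 0.00410. Both quantities were lower in replicate 2, but their ratio moved by far less than either. The ratio was 3.91 ± 0.00360 in the second quantification, so the choice of quantification moved it more than the libraries did. Counted per expected count and not per length, Glrb was 2.44 times the alpha sum and Glra2 was 64.8% of it. The coding transcript of Glra3 has 6508 bases, against 3150 bases for that of Glra2.

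The scaffold gene Gphn had 36.8 TPM in replicate 1 and 36.1 TPM in replicate 2, a mean of 36.4 ± 0.516 at percentile 84.9. Lhfpl4 (ENSMUSG00000042873.11, chr6:113168090-113195384, minus strand) had 52.0 and 49.9 TPM in replicates 1 and 2, a mean of 50.9 ± 1.46 at percentile 89.6. Both were thus below Glrb in each library and above every alpha subunit. Glrb TPM was 1.95 ± 0.120 times that of Gphn in the first quantification and 2.04 ± 0.0521 times in the second. Lhfpl4 TPM was 1.40 ± 0.0204 times that of Gphn in the first and 1.27 ± 0.0853 times in the second.

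The glycine transporters lay at opposite ends. Slc6a9 had 20.8 TPM in replicate 1 and 20.4 TPM in replicate 2, a mean of 20.6 ± 0.262 at percentile 74.6. Slc6a5 (ENSMUSG00000039728.15, chr7:49910146-49963856, plus strand) had 0.08 TPM in each library, from 11 and 9 expected counts, at percentile 26.7. Slc6a9, whose transporter is known mainly from glia, was therefore detected in both libraries. Slc6a5, known from glycine-releasing neurons, was at a few reads. In the second quantification Slc6a5 had 0.235 TPM in replicate 1 and 0.201 TPM in replicate 2, which is also under 1 TPM. The exons of Slc6a9 overlap those of genes on the other strand, Ccdc24 over 1429 bases and B4galt2 over 46 bases. Ccdc24 had 1.52 and 1.36 TPM and B4galt2 79.5 and 78.2 TPM in replicates 1 and 2, and the part of such reads in the Slc6a9 value was not tested, since the strand setting of the counting is not stated in the labels or headers.

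The quantifications differed in scale. Over 13080 detected protein-coding genes, the median ratio of TPM in the first over the second quantification was 0.655, with 0.451 and 0.820 as the 5th and 95th percentiles. The ratio was 0.727 for Glra2, 0.696 for Glra3, 0.693 for Slc6a9, 0.689 for Lhfpl4, 0.622 for Gphn and 0.595 for Glrb, so the 6 detected genes lay within that range. The second quantification gave 119.2 ± 8.91 TPM for Glrb, 74.0 ± 2.44 for Lhfpl4, 58.5 ± 5.87 for Gphn, 29.7 ± 1.27 for Slc6a9, 23.7 ± 1.80 for Glra2 and 6.32 ± 0.545 for Glra3 (SD, n = 2). Nuclear protein-coding genes held 48.0% and 49.0% of all TPM in replicates 1 and 2 in the first quantification, and 78.0% and 79.3% in the second. Coding genes of the mitochondrial genome are not in these shares.

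Between the libraries, the receptor subunit genes Glrb, Glra2 and Glra3 were somewhat lower in replicate 2, while Gphn and Slc6a9 were nearly level. Ratios are of CPM, counts scaled to the library total, in replicate 2 over replicate 1, with 95% intervals that cover counting error only. The ratio was 0.891 (0.853 to 0.932) for Glrb, 0.884 (0.810 to 0.963) for Glra2 and 0.867 (0.769 to 0.977) for Glra3. Lhfpl4 was at 0.957 (0.919 to 0.996), Slc6a9 at 0.992 (0.911 to 1.08) and Gphn at 1.03 (0.972 to 1.09). None of the 6 genes with a mean of 20 or more expected counts passed a 1.2-fold difference with an interval that leaves out 1, beside 6.44% of 16728 genes in either direction and 2.07% on the lower side. The interval left out 1 on the lower side for 4 of the 6 (Glrb, Glra2, Glra3 and Lhfpl4), beside 7.55% of genes on that side, 20.9% on either side, and 41.9% of genes with a lower CPM in replicate 2 at all. These shares are not like for like, since intervals narrow with the count. The 4 had 509 or more expected counts in each library, and the genes beside them begin at a mean of 20. The log2 ratios of the 4 lay within the 5th to 95th percentile of genes, -0.296 to 0.408.

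Other gene lists moved in both directions between the libraries. All 6 synaptic GABA-A subunit genes listed were lower in replicate 2, beside 41.9% of all genes, and the interval left out 1 for 4 of them. Their median log2 ratio was -0.08, beside 0.03 over all genes and -0.11 over the 6 members. The 14 gephyrin partners were mixed, with 6 lower and 8 higher in replicate 2 and a median log2 ratio of 0.01. All 5 striatal markers (Ppp1r1b, Rgs9, Drd1, Adora2a and Drd2) were lower past 1.2-fold, with a median log2 ratio of -0.63. Of 6 interneuron markers 5 were lower, with a median log2 ratio of -0.07, and the interval left out 1 in either direction for 3. Of 6 astrocyte markers 5 were higher, with a median of 0.07, and the interval left out 1 for 4. Among them Gfap passed 1.2-fold at a CPM ratio of 1.29 (1.23 to 1.36). All 4 markers of oligodendrocyte precursors were higher, also with a median of 0.07, but the interval left out 1 for only 1 of them, Cspg4. The part of any of these marker differences in the lower receptor values was not tested. Scaled by the ERCC total, the interval of Lhfpl4 reached from 0.932 to 1.01 and no longer left out 1, and the log2 ratio of Slc6a9 was 0.01, against -0.01 by the library total. The intervals of Glrb, Glra2 and Glra3 lay below 1 under each of the 4 scalings and in the second quantification.

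**Figure D2:**
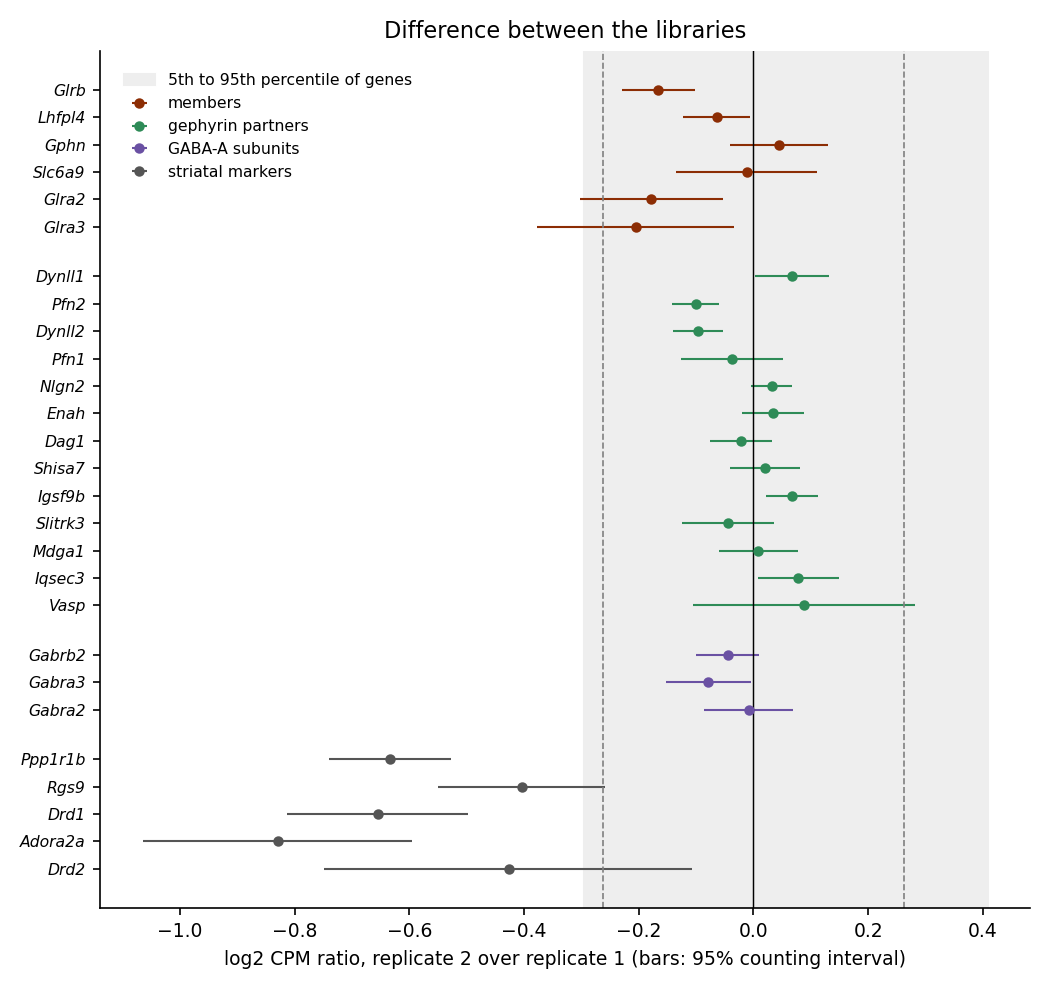
Log2 CPM ratio of replicate 2 over replicate 1 on the horizontal axis, with 95% counting intervals as bars, for the members, 13 gephyrin partners, 3 GABA-A subunits and striatal markers. The shaded band spans the 5th to the 95th percentile of 16728 genes, dashed lines mark 1.2-fold, Glrb, Glra2 and Glra3 lie left of 0, and the striatal markers lie further left.

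The split of Gphn between its coding transcripts was close to even. Gphn-201 held 40.3% of Gphn TPM in replicate 1 and 48.8% in replicate 2, a mean of 44.6% ± 6.01 in the first quantification. Gphn-202, the form with the 108-base exon, held 47.5% and 44.4% in replicates 1 and 2, a mean of 46.0% ± 2.16. The leading form thus changed between the libraries: Gphn-201 over Gphn-202 was 0.849 in replicate 1 and 1.10 in replicate 2. In each library the deposited interval bounds of their TPM overlapped, 12.4 to 16.2 for Gphn-201 and 14.8 to 19.0 for Gphn-202 in replicate 1, and 14.9 to 19.0 and 13.4 to 17.8 in replicate 2. What level those bounds have is not given in the labels or file headers.

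The second quantification put Gphn-201 ahead in both libraries. Gphn-201 held 44.8% in replicate 1 and 56.3% in replicate 2, and Gphn-202 held 32.6% and 33.6%. Among the coding forms alone, Gphn-201 held 49.1% ± 4.55 in the first quantification and 60.3% ± 3.35 in the second. Both forms carried reads in each library and quantification, and which is the larger depended on the quantification. The remaining transcript, Gphn-203, is a retained intron of 484 bases with 35.4 and 18.4 expected counts in replicates 1 and 2. Its 9.46% ± 3.85 of Gphn TPM in the first quantification comes from few reads on a short transcript. In the second it held 22.7% and 10.2% in replicates 1 and 2, or 14.2 and 5.54 TPM from 37.2 and 13.4 estimated counts. The coding forms together had 48.5 and 48.9 TPM there. The Gphn TPM of the second quantification, its spread and the ratios to it thus include this short form. Gphn-201 and Gphn-202 share 3192 exonic bases, and no annotated coding transcript of Gphn carries or skips all 3 alternative exons, so messages with other combinations could not be told from these.

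**Figure D3:**
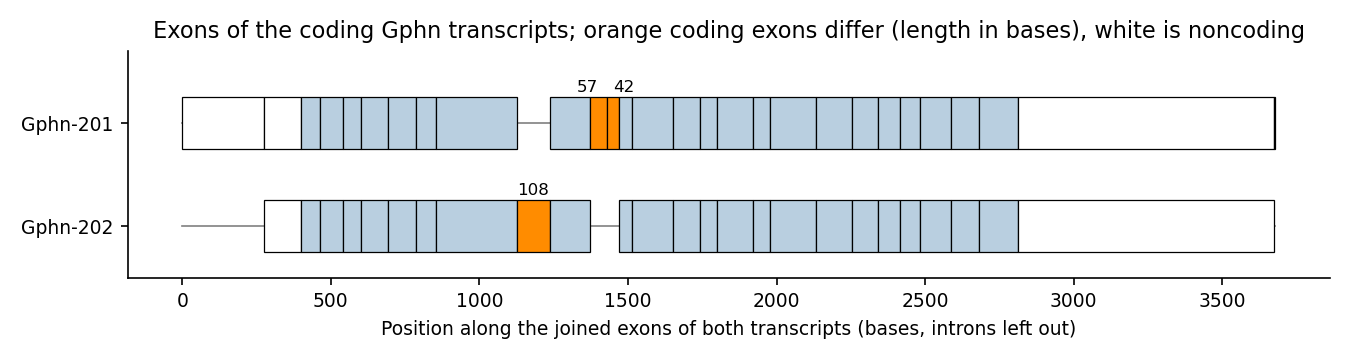
Exons of Gphn-201 (above) and Gphn-202 (below), joined without introns, with position in bases on the horizontal axis. Orange blocks are the coding exons that differ (57 and 42 bases in Gphn-201, 108 bases in Gphn-202), blue blocks are shared coding exons and white blocks are noncoding.

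Glrb-201, the full coding form, held most of Glrb in the first quantification but was level with Glrb-204 in the second. In the first it held 83.7% of Glrb TPM in replicate 1 and 91.2% in replicate 2, a mean of 87.5% ± 5.28. In the second it held 39.0% and 34.4%, a mean of 36.7% ± 3.31. The decay target Glrb-204, which lacks the TCAG of exon 3, held 5.21% ± 5.21 in the first. In the second it held 33.9% in replicate 1 and 37.9% in replicate 2, below Glrb-201 in one library and above it in the other. Its expected counts were 393.4 in replicate 1 and 58.2 in replicate 2, and its estimated counts in the second quantification were 1848 and 1772. The sum of both forms moved less, 92.7% ± 0.0753 in the first and 72.6% ± 0.488 in the second.

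Glrb-201 and Glrb-204 share 2979 exonic bases, which is 98.3% of Glrb-201, so only reads over the acceptor or the 5′ end tell them apart. Glrb-206, the form without the 153-base exon, had 49.0 and 0 expected counts in replicates 1 and 2. It had 403.6 and 317.9 estimated counts in the second quantification, 18.7% ± 1.05 of Glrb TPM. The transcripts annotated as coding held 92.1% ± 4.197 in the first quantification and 55.7% ± 4.76 in the second. The largest move of any Glrb transcript share between the quantifications was 50.8 points, beside a median of 14.3 points over 11833 detected genes with 2 or more transcripts, and it was at percentile 94.3 of them. Within a quantification the summed Glrb counts do not depend on this split, while the coding and decay shares do. The Glrb TPM depends on it too, since TPM is per transcript length. Glrb-206, with 1341 bases, had a mean of 0.96 TPM in the first quantification and 22.4 TPM in the second. The part of the split in the ratio of Glrb to the alpha sum was not tested.

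Slc6a9 changed its leading form between the quantifications. The 3146-base form held 46.5% in replicate 1 and 40.7% in replicate 2 in the first quantification, and 4.11% and 7.42% in the second. The 3479-base form held 28.3% and 35.2% in the first, and 59.2% and 57.2% in the second. Both encode the same coding sequence of 1899 bases and differ outside it. Their sum, which is the TPM share of that one coding sequence, was 75.4% ± 0.751 in the first and 64.0% ± 0.947 in the second. The deposited bounds of the TPM of both forms overlapped in each library, 3.79 to 7.83 for the 3479-base form and 6.27 to 10.9 for the 3146-base form in replicate 1, and 4.72 to 9.03 and 5.13 to 9.87 in replicate 2.

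The 2107-base form of Slc6a9 and the forms of 1194 and 1344 bases, which start near it, together held 9.65% ± 1.53 in the first quantification and 26.5% ± 10.1 in the second. The 2107-base form, whose opening bases are printed above, had 0 expected counts in both libraries in the first, and 176.7 and 81.6 estimated counts in replicates 1 and 2 in the second. Its first-quantification value was thus the same in both libraries, and its second-quantification value was higher in replicate 1. Short forms that start further downstream are not in that sum: the 370-base form held 6.15% ± 1.14 in the first quantification and 0 in the second, and the 456-base form held 11.3% in replicate 2 of the second only. The largest move of a Slc6a9 transcript share was 37.8 points, at percentile 88.8 of the genes compared, and that of Gphn was 12.9 points, at percentile 45.4.

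**Figure D4:**
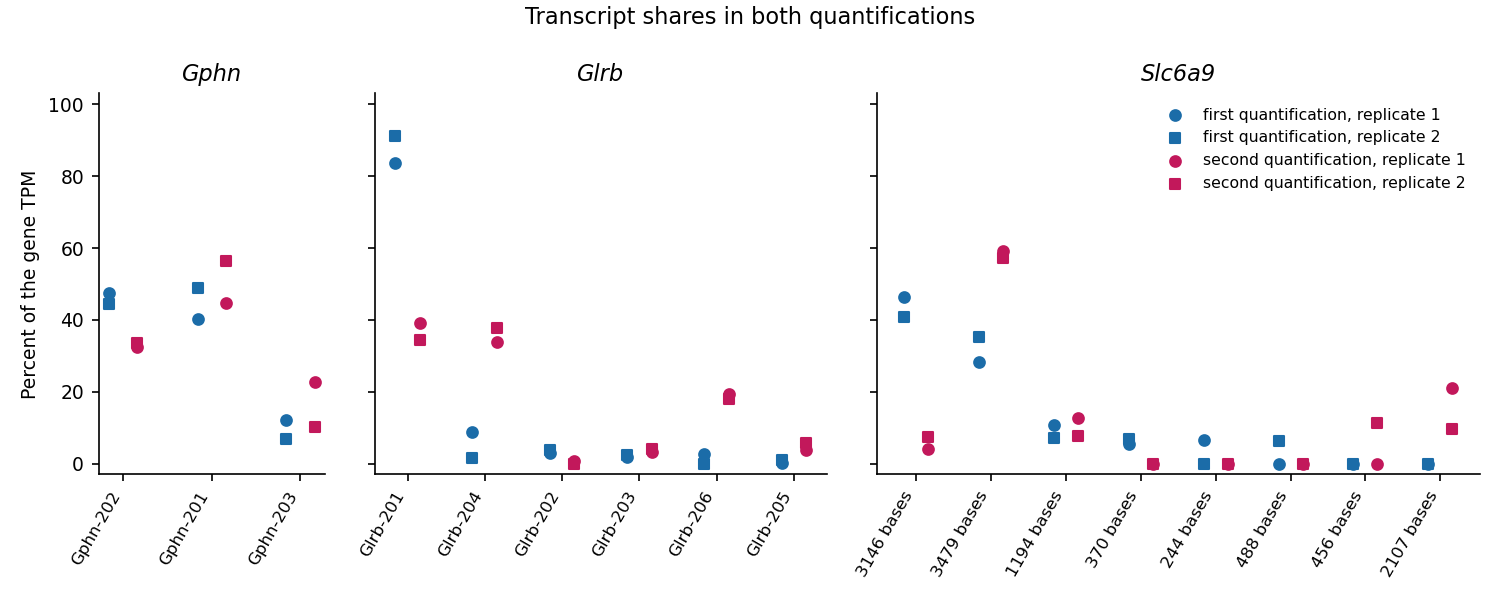
Percent of the gene TPM held by each transcript of Gphn, Glrb and Slc6a9 (for Slc6a9 those with 5% or more in any library or quantification, named by length), with circles for replicate 1 and squares for replicate 2. Blue is the first quantification and magenta the second: the colours part widely for Glrb-201, Glrb-204 and the 3146- and 3479-base forms of Slc6a9.

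The other members left less to resolve. Glra2 has 1 annotated transcript, with 9 exons and 1356 coding bases, so its share is 100% by construction and splice forms of Glra2 could not be separated. The coding transcript of Glra3 held 96.1% ± 1.32 of Glra3 TPM in the first quantification and 91.6% ± 0.804 in the second. The 4762-base coding transcript of Lhfpl4 held 98.6% ± 0.404 and 96.9% ± 0.485. The leading form of Glra1 was its 2390-base transcript by mean share in both, with 13 expected counts in replicate 1 and 11.3 in replicate 2. The reads of Slc6a5 went to its 7065-base transcript in replicate 1 and mostly to its 6966-base transcript in replicate 2 in the first quantification, and the reverse in the second, so its forms cannot be read at this depth.

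Genes that work with gephyrin were all present, and most were above it. Of 14 partners listed, 14 were detected, with a median of 66.1 TPM beside 16.3 TPM over all detected protein-coding genes, and none passed 1.2-fold between the libraries. The dynein light chains Dynll1 and Dynll2, which bind gephyrin, had 335.5 ± 11.7 and 182.4 ± 9.55 TPM, and the actin-binding profilins Pfn2 and Pfn1 had 250.3 ± 12.9 and 132.0 ± 2.15 TPM. Gphn TPM was 0.287 ± 0.0107 times that of Nlgn2, the adhesion protein of inhibitory synapses.

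The GABA-A subunits that share the gephyrin lattice were, in all 6 genes listed, above every alpha glycine subunit. Gabrb2, which encodes a beta subunit, had 72.1 ± 1.68 TPM, and the alpha subunit genes Gabra3 and Gabra2 had 43.1 ± 1.34 and 32.3 ± 1.19 TPM. Glra2 TPM was 0.399 ± 0.0204 times that of Gabra3 and 0.532 ± 0.0242 times that of Gabra2, and both ratios were below 1 in each library. Slc32a1, whose transporter loads both GABA and glycine into vesicles, had 43.7 ± 1.58 TPM, and the GABA-synthesis genes Gad1 and Gad2 had 80.7 ± 5.20 and 40.4 ± 3.42 TPM. RNA for the vesicle transporter was thus present where that of the neuronal glycine transporter Slc6a5 was near 0.

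**Figure D5:**
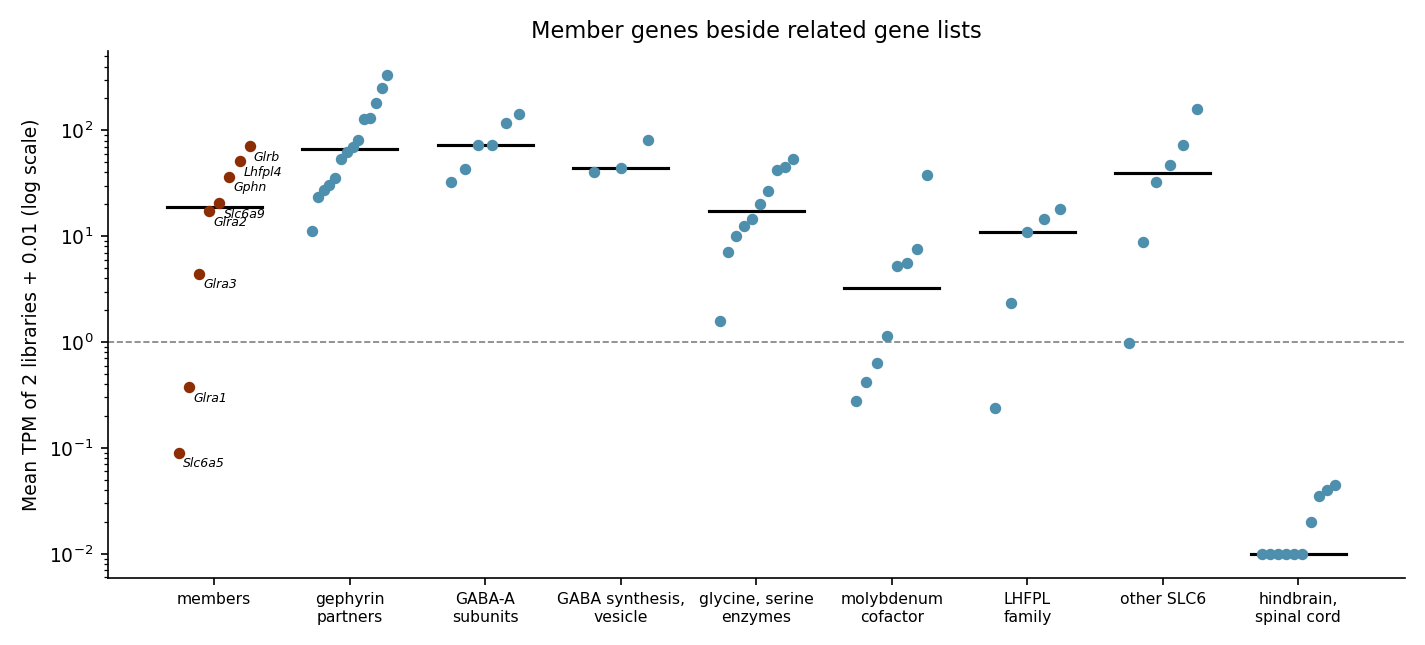
Mean TPM of the 2 libraries plus 0.01, on a log axis, for each gene of 9 lists, with a black bar at the median of each list and a dashed line at 1 TPM. The members (brown) run from Slc6a5 to Glrb, gephyrin partners all lie above the line, and hindbrain and spinal cord markers all lie below it.

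Enzymes that make and break down glycine and serine were detected, 10 of 10, with a median of 17.3 TPM. The highest were Dld, the shared subunit of the glycine cleavage system, at 53.2 ± 3.32 TPM, the serine racemase gene Srr at 45.0 ± 2.76, and Psat1 and Phgdh of serine synthesis at 42.6 ± 0.94 and 26.6 ± 0.474. Gldc, the decarboxylase that starts glycine cleavage, had 7.02 ± 0.156 TPM. None of the 10 passed 1.2-fold between the libraries. Glycine is also the co-agonist of NMDA receptors: Grin1, whose subunit binds it, had 188.0 ± 1.73 TPM and Grin3a 37.2 ± 0.629, while Grin3b had 0.08 ± 0.0707.

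Of 6 further carriers of small neutral amino acids, 5 were detected. Slc6a17 had 121.2 ± 1.33 TPM, Slc1a4 31.9 ± 0.424 and Slc7a10, a carrier of D-serine and glycine, 20.99 ± 1.09, which is close to Slc6a9. Slc6a20a was higher in replicate 2 at a CPM ratio of 1.28 (1.13 to 1.47), with 9.0 ± 2.05 TPM, and Slc6a14 was at 0 in both. Of the 6 GABA and creatine carriers or relatives listed, Slc6a11 had 72.0 ± 2.56 TPM, Slc6a7 46.7 ± 1.11 and Slc6a8 32.2 ± 4.74. Slc6a13 and Slc6a12 were higher in replicate 2, at CPM ratios of 1.51 (1.29 to 1.77) and 2.37 (1.31 to 4.47), and Slc6a12 had 0.98 ± 0.410 TPM. Slc6a9 itself kept level between the libraries, beside the higher choroid plexus markers of replicate 2. The part of choroid plexus in the values of any of these carriers was not tested.

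Gephyrin also has an older role, since its protein completes the molybdenum cofactor of a few oxidases. Of 8 genes of that pathway and its enzymes, 5 were detected in the first quantification. Mocs2, Mocs3 and Mocs1, which act before gephyrin, had 37.6 ± 4.32, 7.61 ± 0.156 and 5.56 ± 0.877 TPM, and the sulfite oxidase gene Suox had 5.27 ± 0.318 TPM. Gphn was thus close to Mocs2 and above the other genes of the pathway. Aox3 was at 1.14 ± 0.0212 TPM and higher in replicate 2 at a CPM ratio of 1.40 (1.01 to 1.94), while Aox1, Xdh and Mocos had 0.63 ± 0.170, 0.41 ± 0.269 and 0.265 ± 0.0919 TPM. Xdh was above 1 TPM in the second quantification, at 1.93 and 1.94 TPM in replicates 1 and 2. It had 234.8 and 226.6 estimated counts there, against 19 and 16 expected counts in the first.

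Lhfpl4 was above each of its 5 listed relatives. Of these, Lhfp, Lhfpl3, Lhfpl2 and Lhfpl5 had 18.2 ± 0.0141, 14.4 ± 1.94, 11.0 ± 1.52 and 2.34 ± 0.467 TPM, and Lhfpl1 had 0.23 ± 0.170. Lhfpl4 TPM was 3.29 times that of Lhfpl3 in replicate 1 and 3.82 times in replicate 2. Lhfpl3 was lower in replicate 2 at a CPM ratio of 0.829 (0.751 to 0.915), past 1.2-fold, whereas Lhfpl4 was not.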

How the data were processed

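Total RNA of left cerebral cortex from 2 libraries of 1 group was used. Per the labels, values are on mm10 with GENCODE M21. The deposited gene and transcript tables of the first quantification hold expected counts, TPM, FPKM and the percent of a gene held by each transcript, per the file headers. The authors also deposited posterior mean values and, as signal values around them, interval bounds in TPM. The deposited tables of the second quantification hold estimated counts and TPM for each transcript, here added up by gene. The programs, their settings and the use of strand are not stated in the labels or headers. Reads of both parental alleles were counted together against a genome of 1 parent.

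Detection means at least 1 TPM in each library. CPM ratios of replicate 2 over replicate 1 used a mean of 20 or more expected counts and 95% Clopper-Pearson intervals, which cover counting error at most. Reads are not independent molecules where no molecular identifiers were used, so the intervals may be too narrow even for that. A call needed 1.2-fold and an interval leaving out 1. These ratios were checked on counts simulated with counting error only, so the check does not cover any other spread between libraries. Scalings used TMM of edgeR 4.0.16 and size factors of DESeq2 1.42.0 on rounded expected counts with a mean of 10 or more (R 4.3.3), and the ERCC total. Other values used Python 3.11.15 with pandas 2.3.3, numpy 2.4.6 and scipy 1.17.1, and figures matplotlib 3.10.9. With 2 libraries of 1 group no count model was fitted.

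The members and the 18 other lists (109 entries, all matched) were chosen with earlier results of these data known. Gad1, Gad2 and Slc32a1 are entered both as GABA synthesis and vesicle genes and as interneuron markers. All members were named. Of each list the 4 highest genes, any past 1.2-fold and any under 1 TPM could be named, and the genes set in a ratio to a member. Gldc was named outside this rule. For Gphn and Glra2 transcripts of 5% or more were named, for the other members the highest transcript of each table. Some genes that this rule covers are not reported here. Further transcripts of Glrb and Slc6a9 were chosen after their values were seen.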

Additional observations from a re-analysis of the deposited data

How the results depend on the processing

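All 8 genes kept their side of 1 TPM in both quantifications, at limits of 0.5 and 2 TPM, and with TPM rescaled over nuclear protein-coding genes. Of the 6 members with enough counts, 0 passed 1.2-fold under each scaling and with ratios of TPM plus 0.1 or 1, and 0 of all 8 did with counting intervals. With no interval and 0.1 added, 1 of all 8 passed, Glra1 at a TPM ratio of 1.45 from 13 and 19 counts, and with 1 added 0 did. The Glra2 share of the alpha sum was 77.5% in the second quantification, 77.9% with posterior mean TPM and 64.8% with expected counts, beside 78.0% to 78.6% in single libraries. Glrb over the alpha sum was 3.91, 3.25 and 2.44 in the same 3 settings, beside 3.23 in each library. Expected counts are not divided by length. The Gphn-201 share was 40.3% to 48.8% in single libraries and 43.7% with posterior mean values. TPM ratios over all 8 members and settings for single member TPM values and for the Glrb and Slc6a9 shares were added after seeing the data. No paired analysis was possible because there is 1 group. Depth limits Glra1 and Slc6a5, with at most 19 expected counts per library.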
